A study of Homo sapiens with 8 samples.

Results

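The genes described here are 9 that encode proteins of the mesenchymal cytoskeleton, the extracellular matrix and its receptors, cell-cell adhesion, and the transcription factors that govern the mesenchymal state: VIM, FN1, CDH2, CD44, ITGB1, ITGA5, SNAI2, ZEB2 and TGFBI. They were taken by Ensembl ID from a table of 60666 gene IDs, and all 9 were among the 17351 genes with enough reads to be tested. The symbols follow the list of IDs by which the genes were chosen, since the table itself gives no symbols.

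The libraries hold RNA recovered with biotinylated microRNA duplexes from 786-0 cells, an established human cell line from a clear cell renal cell carcinoma, 48 hours after transfection. The groups were a control duplex (3 libraries), miR-2355-5p (2 libraries) and miR-1271-5p (3 libraries). All 3 groups share the same line, culture conditions, transfection and pulldown, so they differ by the duplex alone as far as the labels go. The sequence of the control duplex is not given in the sources used here, the design text speaks of triplicates, and the line is 1 cell line with no second line beside it. Each value is a share of the recovered RNA: how much of an RNA the cells held and how well it was recovered cannot be told apart, nor, in such bulk material, fewer cells of a kind and less RNA per cell.

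A microRNA guides an Argonaute protein to RNAs that pair with its seed, the bases 2 to 8 counted from its 5′ end, and a biotin on the microRNA allows the paired RNAs to be pulled down with it. The mature sequences of both microRNAs are shown from RefSeq (GRCh38.p14), 5′ to 3′, with the seed in capitals, because the seed guides the pairing. miR-96-5p is added because it was the only other mature microRNA in that table with the seed of miR-1271-5p, and none shared that of miR-2355-5p.
miR-2355-5p: aUCCCCAGauacaauggacaa
miR-1271-5p: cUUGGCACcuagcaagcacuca
miR-96-5p: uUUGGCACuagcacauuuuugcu
The first is encoded at chr2:207110043-207110063 on the minus strand and the second at chr5:176367960-176367981 on the plus strand. Whether the transcripts of the 9 genes carry matches to these seeds was not analysed here.

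Epithelial cells that pass to a mesenchymal state loosen their junctions, exchange keratin for vimentin filaments and E-cadherin for N-cadherin, and bind fibronectin-rich matrix through integrins. The repressors of the SNAI and ZEB families drive that change by silencing epithelial genes. Renal carcinoma cells are of epithelial origin but often carry vimentin, and several of these genes are common markers of invasive behaviour in such tumours.

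The 9 genes did not move as 1 group. VIM was lower with both microRNAs than with the control duplex. Against the control, CD44 was higher with miR-2355, and ITGA5 and TGFBI were higher and SNAI2 lower with miR-1271. CDH2, ITGB1 and ZEB2 passed the test in neither contrast with the control, and FN1 narrowly missed it with miR-2355. A gene was called higher or lower at a Benjamini-Hochberg adjusted p under 0.05 in edgeR's quasi-likelihood test over all 17351 genes. When miR-2355 was compared directly with miR-1271, none of the 9 was called, against 3.50% (higher) and 2.65% (lower) of all tested genes. The calls against the control therefore do not show that the microRNAs differ.

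With miR-2355, 1 of the 9 genes was called higher and 1 lower, and the shares of all tested genes so called were 12.3% and 17.5%. With miR-1271, 2 were called higher and 2 lower, against 17.6% and 22.5% of all tested genes. The libraries of miR-2355 and control did not overlap for 4 of the genes, 2 higher and 2 lower, against 24.9% and 27.8% of all tested genes. Those of miR-1271 and control likewise did not overlap for 2 higher and 2 lower genes, against 23.1% and 26.8%. All these counts are near the background and show nothing particular to the 9 genes as a list. Over the 9 genes the median log2 fold change was 0.047 for miR-2355 and -0.047 for miR-1271, where the medians over all tested genes were -0.0046 and 0.0055. No fitted change reached 2-fold: the log2 fold changes ran from -0.73 to 0.71 with miR-2355 and from -0.58 to 0.76 with miR-1271. Calls of at least 2-fold made up 2.07% (higher) and 7.18% (lower) of all tested genes with miR-2355. With miR-1271 they made up 3.64% and 8.80%, so that none among 9 genes is near the background. Both contrasts use the same 3 control libraries, so the values of 1 gene in the 2 contrasts are not independent.

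**Figure D1:**
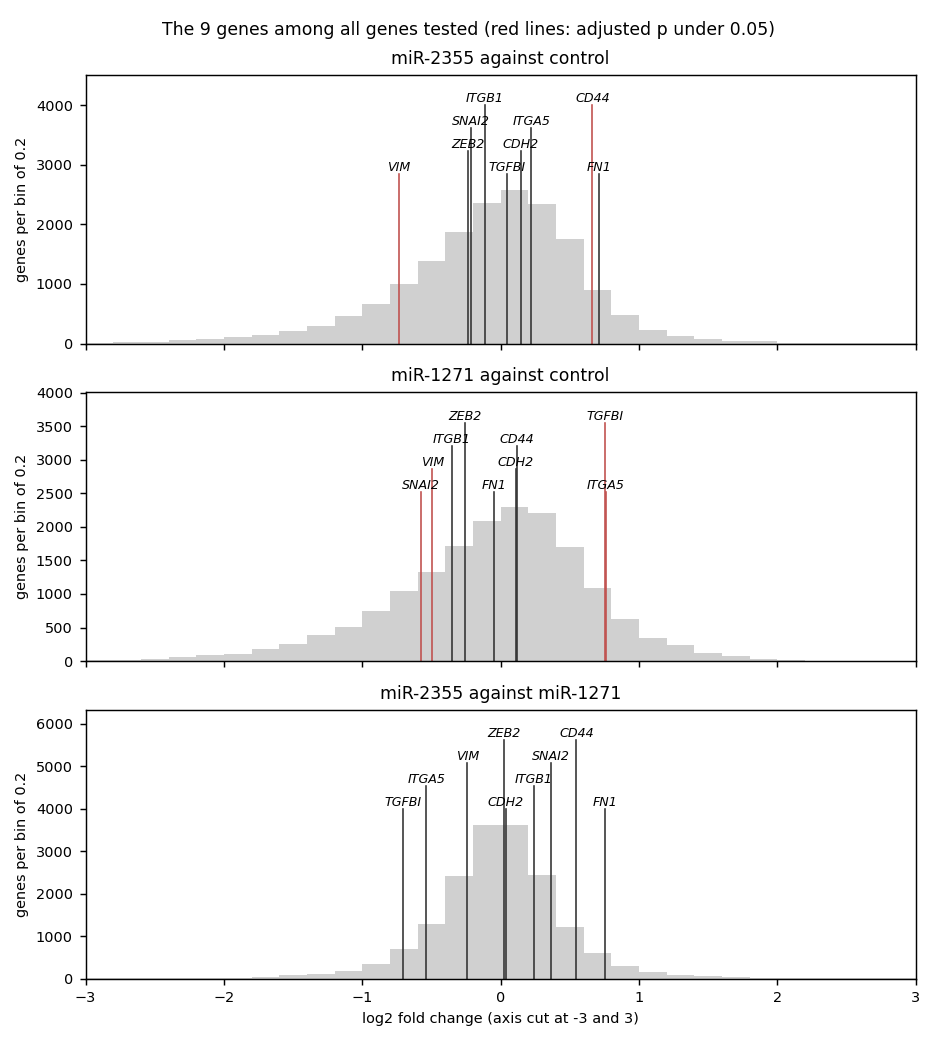
Distribution of fitted log2 fold changes over the 17351 genes tested (grey bars, genes per bin of 0.2) in each contrast, with a labelled line at each of the 9 genes, red where the adjusted p was under 0.05. The 9 genes lie on both sides of 0 in each contrast, between -0.73 and 0.76.

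Library depth ran from 4122875 reads in control replicate 2 to 22864693 in control replicate 1. The coefficient of variation over the 9 genes had a median of 19.2% in the controls, 9.34% with miR-2355 and 9.87% with miR-1271, although VIM varied most with miR-2355 and CD44 and SNAI2 with miR-1271. Control replicate 2 had the lowest control level for 6 of the 9 genes and replicate 1 the highest for 7. The 9 genes together took 1.11% to 1.67% of the reads in the controls, 1.71% to 1.96% with miR-2355 and 1.26% to 1.53% with miR-1271. Most of that difference lay in FN1: without it the shares were 0.646% to 0.800%, 0.643% to 0.695% and 0.679% to 0.776%, and the groups overlapped. Levels below are CPM after TMM scaling, that is, reads as a share of the scaled library total. They compare 1 gene across libraries and not 1 gene with another, because they are not divided by transcript length.

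**Figure D2:**
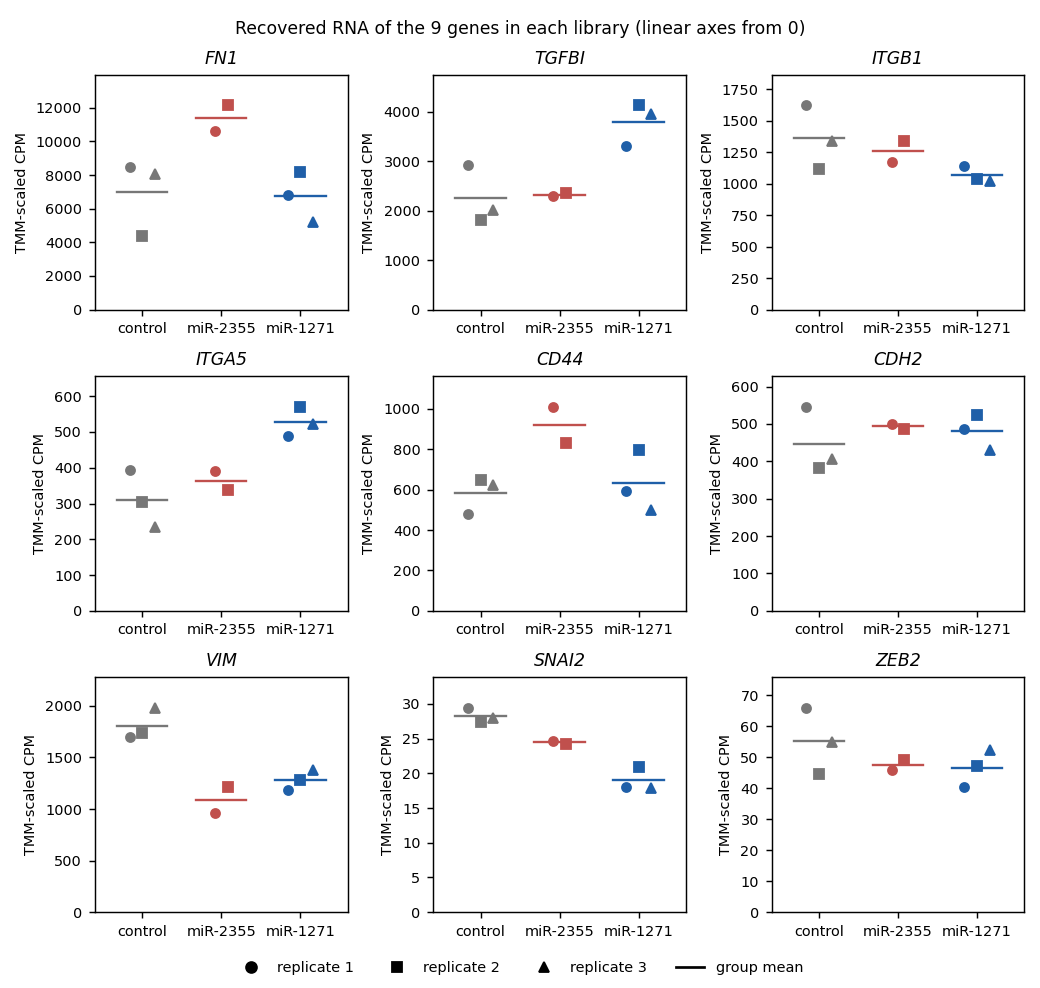
TMM-scaled CPM of each gene (vertical axes, linear from 0) in every library of the control, miR-2355 and miR-1271 groups, 1 point per library with its shape giving the replicate number and a line at the group mean. VIM lies lower in all 5 microRNA libraries than in the 3 controls, and ITGA5 and TGFBI lie higher in the 3 miR-1271 libraries than in any other.

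FN1 (ENSG00000115414, chr2:215360865-215436068) encodes fibronectin, the matrix glycoprotein that integrins bind and assemble into fibrils. It stood at 8475, 4370 and 8042 CPM in control replicates 1 to 3, at 10600.3 and 12155 with miR-2355, and at 6807, 8205 and 5214 with miR-1271. Both miR-2355 libraries lay above every other library, control replicate 2 was the lowest of all, and the control and miR-1271 libraries overlapped. The counts of miR-1271 replicates 1 and 3 were equal, at 65802 reads, although the libraries differ in total. They held equal counts above 300 reads for 2 genes in all.

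The log2 fold change of FN1 was 0.71 ± 0.26 (SE) with miR-2355, a ratio of 1.63, and its edgeR adjusted p of 0.0512 missed the threshold. The 95% interval ran from 0.15 to 1.26. Its side of the threshold moved with the method and with the libraries kept. Of 16 alternatives, 9 called it, among them DESeq2 (0.73, adjusted p = 0.00647) and some fits without 1 library. Over the fits that kept both miR-2355 libraries, the edgeR adjusted p ran from 0.000162 to 0.143. Leaving out control replicate 1 gave 0.87 (edgeR adjusted p = 0.0154), whereas leaving out control replicate 2, its lowest library, gave 0.46 (edgeR adjusted p = 0.143). With miR-1271 the log2 fold change was -0.047 ± 0.24 (SE; edgeR adjusted p = 0.891), and its interval from -0.55 to 0.45 leaves room for a change in either direction. FN1 also had the widest spread between libraries of the 9 genes, with a biological coefficient of variation of 18.5% where the trend at its abundance was 13.2%.

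TGFBI (ENSG00000120708, chr5:136028988-136063818) encodes a secreted matrix protein that is induced by TGF-beta and binds collagens and integrins. Its levels were 2934, 1809 and 2017 CPM in the controls, 2293 and 2364 with miR-2355, and 3318, 4137 and 3952 with miR-1271. All miR-1271 libraries lay above all others, and the miR-2355 libraries lay inside the control range. TGFBI rose with miR-1271 by 0.75 ± 0.18 on the log2 scale (SE), a ratio of 1.69 (edgeR adjusted p = 0.00374). This call held under all 16 alternatives, with log2 fold changes from 0.61 to 0.99. With miR-2355 the log2 fold change was 0.047 ± 0.20 (SE; 95% interval -0.39 to 0.48; edgeR adjusted p = 0.894). The 2 matrix genes thus had their highest levels in different pulldowns, FN1 with miR-2355 and TGFBI with miR-1271.

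ITGB1 and ITGA5 encode the beta and alpha chains of the main fibronectin receptor, integrin alpha5 beta1. ITGB1, which also pairs with many other alpha chains, lies at chr10:32900318-32958230 (ENSG00000150093) and ITGA5 at chr12:54395261-54419266 (ENSG00000161638). ITGA5 stood at 395, 304 and 235 CPM in the controls, at 389.9 and 336 with miR-2355 and at 488, 571 and 522 with miR-1271. The miR-1271 libraries lay above all others and the other groups overlapped. ITGA5 rose with miR-1271 by 0.76 ± 0.16 on the log2 scale (SE), a ratio of 1.69 (edgeR adjusted p = 0.00159), and was called under all 16 alternatives, from 0.59 to 0.97. With miR-2355 the log2 fold change was 0.22 ± 0.18 (SE; 95% interval -0.16 to 0.61; edgeR adjusted p = 0.385), and it was called there only without control replicate 1 (0.43, edgeR adjusted p = 0.0428, with up to 0.868 under the other alternatives).

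The partner chain ran the other way without passing the test. ITGB1 stood at 1624, 1119.9 and 1339.7 CPM in the controls, at 1175 and 1341 with miR-2355, and at 1139.8, 1039.6 and 1021 with miR-1271. The groups overlapped in both contrasts with the control, though 2 of the 3 miR-1271 libraries lay below every control. The log2 fold change with miR-1271 was -0.35 ± 0.15 (SE; 95% interval -0.68 to -0.03; edgeR adjusted p = 0.0779), and it was called without control replicate 2 (-0.48, adjusted p = 0.021), with library totals in place of TMM (-0.50, 0.0153) and without the filter on low counts (-0.38, 0.0444). Over all 16 alternatives the adjusted p ran from 0.0153 to 0.238. With miR-2355 it was -0.11 ± 0.17 (SE; 95% interval -0.48 to 0.25; edgeR adjusted p = 0.659).

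Ratios of reads between 2 genes within a library do not depend on any scaling. They were chosen after the values had been seen and are given as description with no test. ITGA5 reads per ITGB1 read numbered 0.243, 0.271 and 0.175 in the controls, 0.332 and 0.251 with miR-2355, and 0.428, 0.549 and 0.511 with miR-1271. The mean was thus 0.230 ± 0.049 (SD, n = 3) in the controls and 0.496 ± 0.062 (SD, n = 3) with miR-1271, with no overlap. FN1 reads per TGFBI read numbered 2.89, 2.42 and 3.99 in the controls. They numbered 4.62 and 5.14 with miR-2355 but 2.05, 1.98 and 1.32 with miR-1271, so that the 3 groups did not overlap. This ratio sets a gene highest with miR-2355 over 1 highest with miR-1271, so the separation follows in part from that choice. FN1 reads per ITGB1 read stood at 9.02 and 9.06 with miR-2355, above the 3.90 to 6.003 of the controls and the 5.11 to 7.89 with miR-1271. CD44 reads per ITGB1 read overlapped between the microRNAs, at 0.62 to 0.86 with miR-2355 and 0.49 to 0.77 with miR-1271 (controls 0.29 to 0.58). TGFBI reads per VIM read did not overlap, at 1.02 to 1.73 in the controls, 1.95 to 2.39 with miR-2355 and 2.80 to 3.22 with miR-1271.

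**Figure D3:**
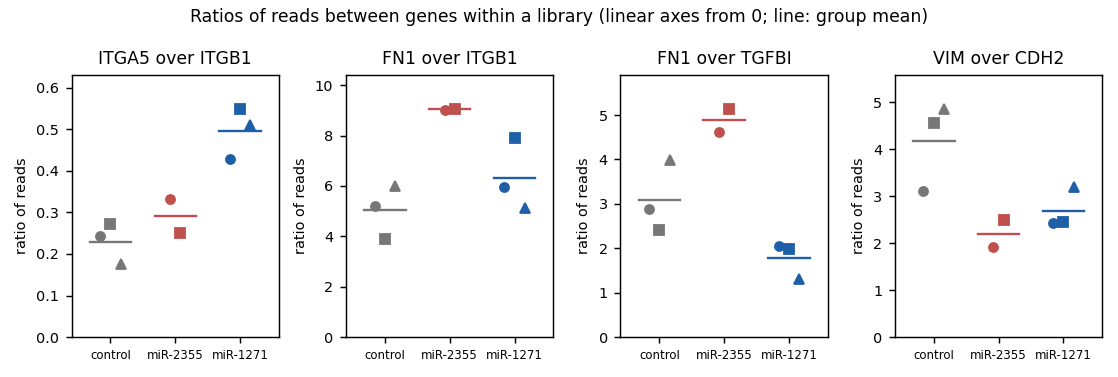
Ratios of raw reads between 2 of the genes within each library (vertical axes, linear from 0), by group, with circles, squares and triangles for replicates 1, 2 and 3 and a line at the group mean. ITGA5 over ITGB1 is highest in the 3 miR-1271 libraries (0.428 to 0.549), and FN1 over TGFBI separates all 3 groups.

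CD44 (ENSG00000026508, chr11:35139171-35232402) encodes the main receptor for hyaluronan, a surface glycoprotein of many splice forms that are counted together here. It stood at 478, 648 and 621 CPM in the controls, at 1012 and 831 with miR-2355 and at 596, 796 and 501 with miR-1271. Both miR-2355 libraries lay above all others, although miR-1271 replicate 2 came close to the lower of them. CD44 rose with miR-2355 by 0.66 ± 0.19 on the log2 scale (SE), a ratio of 1.58 (edgeR adjusted p = 0.0154). Of 16 alternatives, 14 kept this call and 2 lost it. It was lost with a replicate block (0.63, edgeR adjusted p = 0.0511) and without miR-2355 replicate 1, the higher miR-2355 library (0.54). Without miR-2355 replicate 2 the call was kept (0.80). Where 1 miR-2355 library is left, its spread is taken from the control and miR-1271 libraries. With miR-1271 the log2 fold change was 0.12 ± 0.17 (SE; 95% interval -0.25 to 0.48; edgeR adjusted p = 0.626).

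CDH2 (ENSG00000170558, chr18:27932879-28177130) encodes N-cadherin, the calcium-dependent adhesion protein of mesenchymal and neural cells. Its levels ran from 383 to 547 CPM in the controls, from 488 to 500.3 with miR-2355 and from 431 to 525 with miR-1271, and all microRNA libraries lay inside the control range. The log2 fold changes were 0.15 ± 0.16 (SE; 95% interval -0.20 to 0.49; edgeR adjusted p = 0.537) with miR-2355 and 0.11 ± 0.15 (SE; -0.20 to 0.42; 0.583) with miR-1271. The intervals do not reach 1.5-fold in either direction.

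VIM (ENSG00000026025, chr10:17228241-17237593) encodes vimentin, the intermediate filament protein that is the most used marker of mesenchymal cells. It stood at 1697, 1742 and 1981 CPM in the controls, at 959.9 and 1213 with miR-2355 and at 1187, 1285 and 1380.1 with miR-1271. Every microRNA library lay below every control library, and the microRNA groups overlapped. VIM alone among the 9 genes was called in both contrasts with the control. These share the 3 control libraries, and 17.5% and 22.5% of all tested genes were called lower in them. The shares of all tested genes called in both, or below the controls in every microRNA library, were not computed. VIM fell by 0.73 on the log2 scale with miR-2355 (SE 0.17, edgeR adjusted p = 0.00335), which leaves 0.601 of the control level. With miR-1271 it fell by 0.49 (SE 0.15, edgeR adjusted p = 0.0132), which leaves 0.711.

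The direction of VIM was the same under all 16 alternatives in both contrasts, from -0.91 to -0.55 with miR-2355 and from -0.64 to -0.39 with miR-1271. With miR-2355 it lost its call without miR-2355 replicate 1, the lower miR-2355 library (-0.55), and kept it without miR-2355 replicate 2 (-0.91). In both of these fits a lone miR-2355 library takes its spread from the other groups. With miR-1271 it did not pass without control replicate 3 (-0.42, 0.0708) or miR-1271 replicate 1 (-0.43, 0.0842). The lowest adjusted p under the alternatives came from DESeq2, at 1.09e-05 for miR-2355 and 0.00132 for miR-1271. Against CDH2, another of the genes with high counts, VIM reads numbered 3.11 to 4.86 per CDH2 read in the controls. They numbered 1.92 and 2.49 with miR-2355 and 2.43 to 3.204 with miR-1271, where the highest library passed the lowest control.

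SNAI2 and ZEB2 encode zinc finger repressors, SNAI2 known as Slug and ZEB2 as SIP1, that bind E-box sequences in the promoters of epithelial genes such as the one for E-cadherin. SNAI2 (ENSG00000019549) stood at 29.4, 27.4 and 27.9 CPM in the controls, at 24.7 and 24.2 with miR-2355 and at 18.1, 20.99 and 17.9 with miR-1271. The 3 groups did not overlap, with the controls highest and miR-1271 lowest. SNAI2 had the fewest reads of the 9 genes, down to 120 in control replicate 2. The counting error of that library alone allowed 99.5 to 143.5 reads (exact 95% Poisson interval, which covers counting error only).

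SNAI2 fell with miR-1271 by 0.58 on the log2 scale (SE 0.13, edgeR adjusted p = 0.0016), which leaves 0.67 of the control level. The call held under all 16 alternatives, from -0.73 to -0.48. With miR-2355 the log2 fold change was -0.21 ± 0.14 (SE; 95% interval -0.50 to 0.07; edgeR adjusted p = 0.256), and it passed under none of the 16 alternatives. No overlap alone is common in these data: the shares of all tested genes that lay wholly below the controls are the 27.8% and 26.8% given above.

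ZEB2 (ENSG00000169554, chr2:144384081-144520119) did not pass with either microRNA. Its levels ran from 44.7 to 65.97 CPM in the controls, from 45.8 to 49.2 with miR-2355 and from 40.3 to 52.5 with miR-1271, and the groups overlapped. The log2 fold changes were -0.24 ± 0.16 (SE; 95% interval -0.57 to 0.09; edgeR adjusted p = 0.275) and -0.26 ± 0.14 (SE; -0.56 to 0.04; 0.156). It was called with miR-1271 without control replicate 2 (-0.37, edgeR adjusted p = 0.0347) and with library totals in place of TMM (-0.40, 0.0335), whereas without control replicate 1 it stood at -0.12 (0.533). ZEB2 reads per SNAI2 read ran from 1.63 to 2.24 in the controls, from 1.85 to 2.03 with miR-2355 and from 2.23 to 2.93 with miR-1271. The control range overlapped that of each microRNA, and the 2 microRNA ranges did not overlap.

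**Figure D4:**
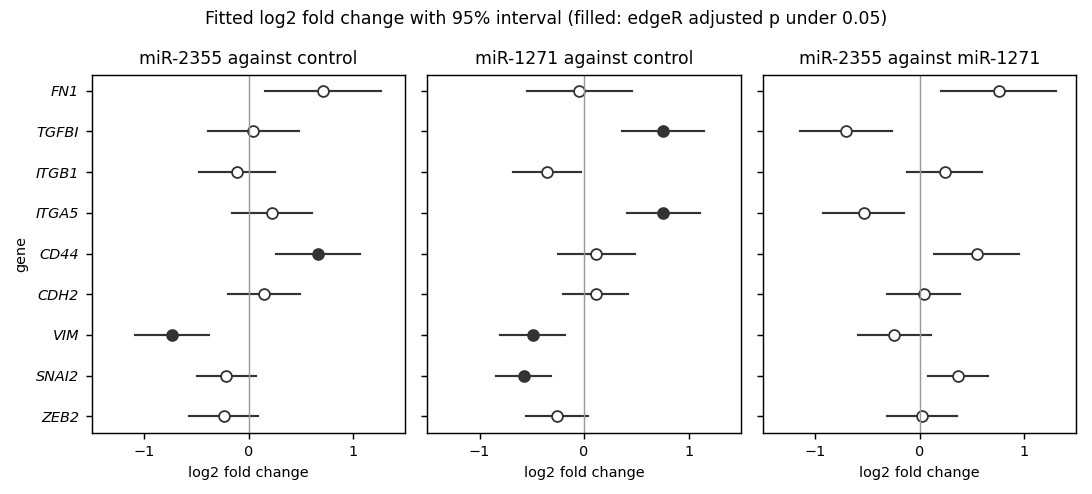
Fitted log2 fold change (horizontal axis) of each gene in the 3 contrasts with its 95% interval, filled where the edgeR adjusted p was under 0.05. VIM is filled in both contrasts with the control, CD44 with miR-2355 only, ITGA5, TGFBI and SNAI2 with miR-1271 only, and no gene in the direct contrast.

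Because a call in 1 contrast and not in the other does not show that the microRNAs differ, the pulldowns were also compared with each other. None of the 9 genes passed in edgeR at an adjusted p under 0.05, whereas 3.50% of all tested genes were called in favour of miR-2355 and 2.65% in favour of miR-1271. At an unadjusted p under 0.05 there were 5 of 9 (FN1, CD44, ITGA5, SNAI2 and TGFBI), against 22.7% of all tested genes. DESeq2 called 4: FN1 and CD44 higher and ITGA5 and TGFBI lower with miR-2355 than with miR-1271. Over the whole table DESeq2 called 683 genes higher and 589 lower, where edgeR called 608 and 459. DESeq2 was run on all genes with a read, and the share it called was not computed, so its 4 of 9 has no background share beside it. Among the 9 genes the difference was largest for FN1, at 0.75 ± 0.26 on the log2 scale (SE; miR-2355 minus miR-1271; 95% interval 0.20 to 1.31; edgeR adjusted p = 0.0959, DESeq2 0.0164). For TGFBI it was -0.71 ± 0.21 (SE; -1.15 to -0.27; edgeR adjusted p = 0.054, DESeq2 0.00334).

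CD44 differed by 0.55 ± 0.19 (SE; edgeR adjusted p = 0.0989), ITGA5 by -0.54 ± 0.18 (SE; 0.0935) and SNAI2 by 0.37 ± 0.14 (SE; 0.12). For these 5 genes the miR-2355 libraries did not overlap the miR-1271 libraries. ITGB1 did not overlap either, at 0.24 ± 0.17 (SE; edgeR adjusted p = 0.432), so 4 of the 9 genes lay higher and 2 lower with miR-2355 without overlap, against 21.1% and 20.5% of all tested genes. VIM differed by -0.24 ± 0.16 (SE; 95% interval -0.59 to 0.11; edgeR adjusted p = 0.404), CDH2 by 0.038 ± 0.16 (SE; -0.31 to 0.38; 0.922) and ZEB2 by 0.023 ± 0.16 (SE; -0.31 to 0.35; 0.954), and these libraries overlapped.

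The outcome of the direct contrast also depended on the control libraries, although they do not enter the difference itself. Without control replicate 1, FN1 (edgeR adjusted p = 0.0436), CD44 (0.0471), ITGA5 (0.0237) and TGFBI (0.00719) passed, at log2 differences within 0.01 of those above. Over the whole table that fit called 915 genes higher and 785 lower, against 608 and 459 in the main fit. Without control replicate 2, FN1 (0.0285) and TGFBI (0.0269) passed, with 854 and 697 genes called over the whole table. Without miR-1271 replicate 2 CD44 passed (0.76, adjusted p = 0.0482), with 286 and 191 genes called. A fit of the 2 microRNA groups alone called FN1 (0.0164), CD44 (0.0487), ITGA5 (0.0153) and TGFBI (0.00788), with 970 and 902 genes called. SNAI2 passed only with library totals in place of TMM (0.49, edgeR adjusted p = 0.0368). Over all 16 alternatives the adjusted p ran from 7.11e-05 to 0.343 for FN1, from 0.0068 to 0.403 for CD44, from 0.0153 to 0.417 for ITGA5 and from 0.00241 to 0.201 for TGFBI.

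**Figure D5:**
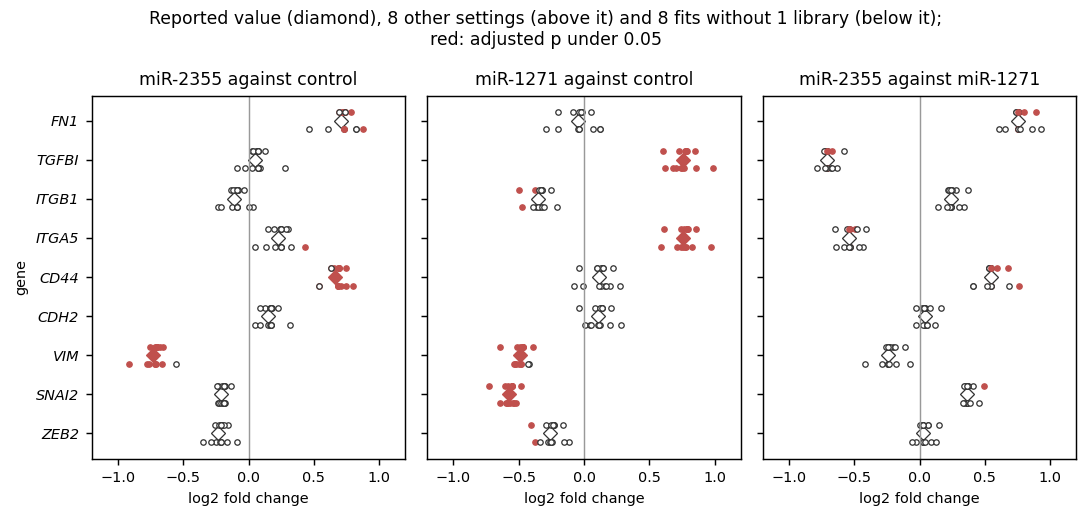
Log2 fold change (horizontal axis) of each gene as reported (diamond), under 8 other settings (points above it) and without each of the 8 libraries (points below it), in red where the adjusted p was under 0.05. ITGA5, TGFBI and SNAI2 against the control with miR-1271 are red throughout, and FN1 with miR-2355 and 5 genes of the direct contrast are red in some fits only.

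Reads of other genes may enter these counts. On GRCh38.p14, 7 of the 9 gene spans overlap another RefSeq gene, among them VIM with VIM-AS1, CD44 with CD44-AS1 and ZEB2 with ZEB2-AS1, and the strand setting of the counting is not given. SNAI2 and TGFBI overlap none. ITGB1 and ZEB2 each have a copy by name in RefSeq (ITGB1P1 and ZEB2P1), and how reads with several matches were counted is not given either. The part of such reads in the levels was not tested.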

How the data were processed

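The authors' deposited table holds raw read counts per Ensembl gene ID, 1 column per library. Per the submitters' processing notes, BWA and featureCounts were used with hg38 / GRCh38. Versions, annotation, strand setting and multi-mapping rules: not given in the sources used here. Since BWA is not a spliced aligner, exon-junction reads can be missed, and whether the loss was equal between libraries was not tested.

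Genes were filtered with filterByExpr (edgeR 4.0.16, R 4.3.3), which kept 17351 genes and 99.78% to 99.82% of reads, and scaled by TMM. All 8 libraries entered 1 quasi-likelihood fit with 1 mean per group. P-values were adjusted over all tested genes. Standard errors are the log2 fold change over the square root of F, and intervals are 95% t intervals from them. The procedure was tested on simulated data. DESeq2 1.42.0 served as an alternative, beside other scalings, no filter, equal depth, 2 groups only, a replicate block and leaving out each library. Where that left 1 miR-2355 library, it was assumed to vary like the other groups.

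The 9 genes and the lists were chosen with earlier results of these data known. All 9 are named whatever their values. Neither the 12 lists of related genes and cell type markers, which are by symbol, nor the rule for genes of similar pattern was used, because 0 IDs matched the gene table used here. The labelled cell type was therefore not checked against markers. Gene positions are RefSeq's (GRCh38.p14), matched by symbol.

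Whether replicates are separate cultures is not stated, so the p-values describe only how these libraries vary, which may be technical. No 2 libraries of a group agreed within sampling noise (chi-square per degree of freedom 6.21 to 21.9).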

Additional observations from a re-analysis of the deposited data

How the results depend on the processing

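Of 27 log2 fold changes (9 genes in 3 contrasts), 8 kept their direction and their side of the threshold under all 16 alternatives. Over all gene and alternative pairs, 375 of 432 stayed so, 37 newly passed, 5 no longer passed and 15 changed sign.

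The count of the 9 genes called higher with miR-2355 was 1, but 2 with DESeq2, with RLE, upper-quartile or no scaling factors, without the low-count filter and at equal depth, and 0 to 3 without 1 library. The count called lower was 1, and 0 to 1 without 1 library. Lower with miR-1271 were 2, but 3 without the low-count filter, 4 with library totals alone and 1 to 4 without 1 library. The count of 2 higher with miR-1271 was kept throughout. Over the whole table, 3910 genes were lower with miR-1271, but 3949 without the filter and 4887 with library totals. The settings that called 2 of the 9 genes higher with miR-2355 called 1726 to 2836 higher over the whole table, against 2127. In the direct contrast, 0 were called. With DESeq2, without the filter or with 2 groups only, 2 were higher and 2 lower with miR-2355, with library totals alone 3 were higher, and without 1 library 0 to 2 were called each way.

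The signs that changed were all of values that did not pass. Leaving out 1 library moved ITGB1 with miR-2355 from -0.24 to 0.031 (above 0 without control replicate 1) and TGFBI from -0.091 to 0.28 (below 0 without control replicate 2, and -0.028 without 3). With miR-1271, FN1 ran from -0.29 to 0.12 (above 0 without control replicates 1 and 3, at 0.12 and 0.069, and miR-1271 replicate 3, and 0.051 with upper-quartile factors). CD44 ran from -0.074 to 0.27 (below 0 without miR-1271 replicate 2, -0.010 without control replicate 1, and -0.041 with library totals), and CDH2 was -0.041 with library totals. In the direct contrast, CDH2 ran from -0.030 (without miR-1271 replicate 3) to 0.11 and was -0.030 with the replicate block, and ZEB2 ran from -0.060 (without miR-1271 replicate 1; -0.026 without miR-2355 replicate 2) to 0.12. The cause was not tested.

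Replicate numbers did not pair the libraries: same-numbered deviations correlated at -0.103 to 0.02, and 0 of 8 libraries correlated best with their own number. With the replicate block, 0 of the 9 genes were higher with miR-2355 (CD44 0.63, edgeR adjusted p = 0.0511), and 320 and 217 genes of the table differed in the direct contrast.

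Over the whole table, the direct contrast called 608 and 459 genes, but 1252 and 261 with library totals, 930 higher without the filter, 304 lower at equal depth, 970 and 902 with 2 groups only, and 154 to 915 and 70 to 785 without 1 library. With miR-2355, 760 were higher and 1569 lower without miR-2355 replicate 1, against 2127 and 3044. With library totals the median over all genes shifted by -0.15 (log2) with miR-1271 and by 0.13 in the direct contrast, and gave 1896 higher genes with miR-1271 against 3062. Higher genes made up 41.1% of calls with miR-2355 (52.03% with upper-quartile factors), 43.9% with miR-1271 (54.6% and, with library totals, 27.95%) and 56.98% in the direct contrast (82.75% with library totals, 68.75% without miR-2355 replicate 2). Control replicate 2, the shallowest library, held 120 reads of SNAI2 and 196 of ZEB2.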
